A study of Mus musculus with 36 samples.

Results

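The SLAM receptor family of mammary tumors and control glands is described here through 7 genes, Cd48, Cd244, Slamf1, Ly9, Cd84, Slamf6 and Slamf7. The members were matched by symbol in the table of 21650 mouse genes, where all 7 had a value in all 36 libraries and none was lost to a filter. RNA was sequenced in 12 groups of 3 libraries each. 4T1 tumors grew in BALB/c hosts and Py230 tumors in C57BL/6 hosts. The control glands, also from both strains, had received the gel carrier Matrigel without tumor cells. Each of these 4 kinds of sample was taken at 1, 3 and 6 weeks post-inoculation (w p.i.). 4T1 is a BALB/c mammary tumor line that carried firefly luciferase, and Py230 is a line from a C57BL/6 mouse with the MMTV-PyMT transgene, in which a mammary promoter drives a viral oncogene. Every host was a lactating female, mated from the age of 8 weeks and inoculated through the duct of the third mammary gland after its pups had been weaned 10 days after delivery. Because each line grew in its own strain, tumor line and host strain cannot be told apart in the tumors, and the glands gave the measure of the strain alone.

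SLAM family receptors are surface proteins of leukocytes. Most bind a second copy of themselves on a neighboring cell, whereas Cd48, held in the membrane by a lipid anchor, is the ligand of Cd244. The tails of most members recruit the adaptors SAP, encoded by Sh2d1a, which binds the kinase Fyn, and EAT-2, encoded by Sh2d1b1. Inbred mouse strains carry different haplotypes of the gene cluster. C57BL/6 and BALB/c differ in this respect, and the BALB/c type of haplotype holds additional copies related to Cd244. The reads had been mapped to the mouse build mm10, which is the C57BL/6 genome, and how reads from such copies were counted is not given in the sources used here. The values of Cd244 are uncertain in BALB/c hosts for that reason. Reads of every other member, Slamf7 included, were mapped to the same C57BL/6 genome. How this affected their values in BALB/c hosts was not tested.

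The genes lie within 394 kb of chromosome 1 (GRCm38, annotated by GENCODE M21). Cd244 (ENSMUSG00000004709, annotated as Cd244a) spans chr1:171559193-171609746 on the plus strand and encloses Ly9 (ENSMUSG00000004707, chr1:171588624-171607410, minus strand), although no exons of the pair overlap. Slamf7 follows (ENSMUSG00000038179, chr1:171632403-171653035, minus strand), and its exons overlap those of the antisense gene Gm37787. Further along the plus strand come Cd48 (ENSMUSG00000015355, chr1:171682009-171705258), Slamf1 (ENSMUSG00000015316, chr1:171767127-171801184), Cd84 (ENSMUSG00000038147, chr1:171839697-171890718) and Slamf6 (ENSMUSG00000015314, chr1:171917515-171953170). The libraries were stranded, but whether the counting used the strand is not given in the sources used here. The authors' mean normalized count over all libraries, divided by kilobases of exon, was 370 for Cd48, 182 for Cd84 and 95.9 for Ly9. It was 66.0 for Slamf7, 19.8 for Cd244, 7.60 for Slamf6 and 2.95 for Slamf1, the least abundant member.

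The deposited values are standardized scores. In each library the 21650 genes have a mean of 0 and a standard deviation (SD) of 1, so a score of 1 lies 1 SD above the average gene of that library. A difference in score is not a fold change, and the depth of each library is unknown. Differences were estimated with limma, with 1 mean per group over all 36 libraries, and are given ± standard error (SE). A gene was called where the p-value, adjusted over all genes, was under 0.05. The titles number the tumors and glands of each group, and the paper calls its tumor samples independent. Nothing in the labels says that libraries came from separate animals, so the p-values measure the spread between libraries only. The lowest correlation within a group was 0.947, in Py230 tumors at 3 w p.i. Levels of marker genes were looked up as means over all 36 libraries, which cannot check the label of any single library. The epithelial genes Epcam, Krt8 and Krt18 had mean normalized counts above those of 98.07%, 97.83% and 99.06% of genes. The leukocyte gene Laptm5 was above 98.56%. The B cell gene Fcer2a and the neutrophil gene Ly6g, each the lowest of its list, were above 1.56% and 0.32%. The highest of these lists, Cd22 and Csf3r, were above 43.1% and 57.9%. Skeletal muscle markers, the mean of 4 genes, ranged from -0.64 to 3.02 between libraries.

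Slamf7, a receptor of plasma cells, NK cells and activated leukocytes, was the member that separated the strains. In the 9 BALB/c glands its score had a lowest value of -0.42, a median of -0.09 and a highest value of 0.19. In the 9 C57BL/6 glands these values were 0.32, 0.43 and 0.85. No BALB/c gland reached the lowest C57BL/6 gland. The difference of BALB/c minus C57BL/6, averaged over weeks, was -0.62 ± 0.08 (adjusted p = 1.87e-06). Among all genes, 1.49% were lower in BALB/c glands without any overlap, and 5.49% passed the test in that direction.

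Week by week, Slamf7 scored -0.05, -0.41 and 0.19 in the BALB/c glands at 1 w p.i. and 0.85, 0.41 and 0.66 in the C57BL/6 glands. At 3 w p.i. the values were -0.07, -0.09 and 0.08 against 0.32, 0.32 and 0.39. At 6 w p.i. they were -0.11, -0.31 and -0.42 against 0.43, 0.55 and 0.51. The strains were apart in each week, with differences of -0.73 ± 0.14 (adjusted p = 0.00141), -0.37 ± 0.14 (adjusted p = 0.186) and -0.77 ± 0.14 (adjusted p = 0.000653). Lower scores without overlap were seen for 7.09%, 12.1% and 11.6% of all genes in these weeks, and 1.49%, 1.88% and 2.18% passed the test. From week 1 to week 6 the strain difference of Slamf7 changed by -0.04 (95% interval -0.45 to 0.36), and no member passed this test, which 0.0139% of genes did. Leaving out any of the 18 gland libraries kept the averaged difference between -0.67 and -0.57. When only the 6 libraries of week 1 were fitted, however, that week's call was lost (adjusted p = 0.21), whereas week 3 gained one (adjusted p = 0.0141).

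**Figure D1:**
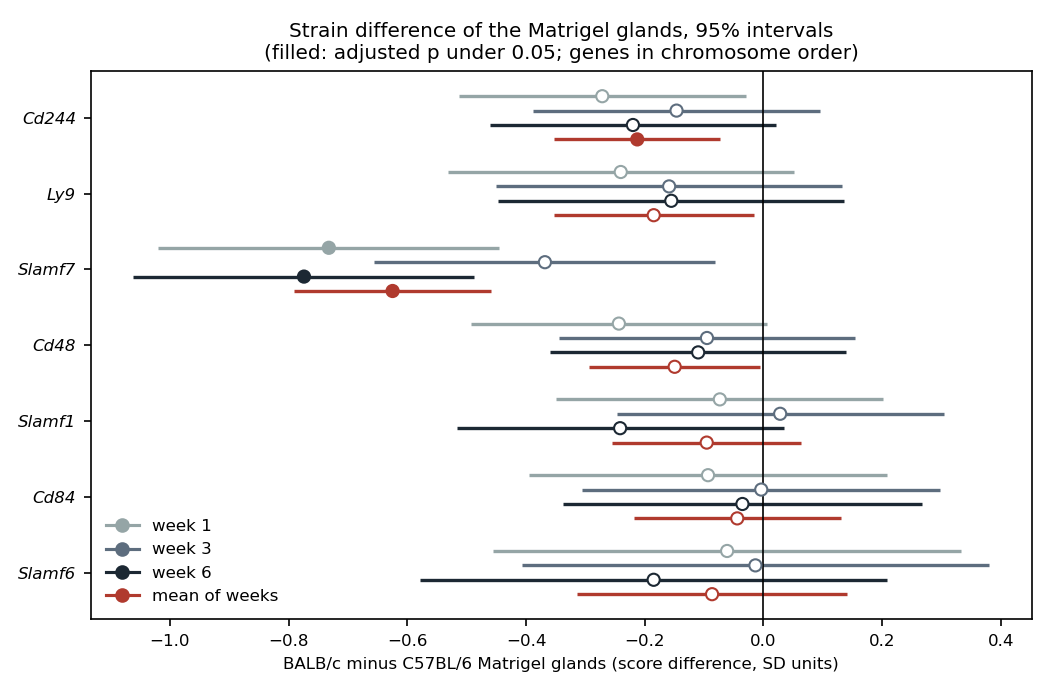
Score difference of BALB/c minus C57BL/6 Matrigel glands for each member in chromosome order, at each week (grey to black) and averaged over weeks (red). Lines are 95% intervals and filled points passed the test; Slamf7 lies at -0.62 on average, and the other members lie between -0.21 and -0.04.

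The promoter of Slamf7 is shown because it is the gene with the strain difference, and those of Cd48 and Cd84 because they are the members with the highest count per kilobase. The RefSeq windows, of 300 bases each on GRCm38.p6, run 5′ to 3′ on the strand of the gene across its RefSeq start, with most of each window before it, and matched 6 of the 7 genes, all but Ly9. Capitals mark matches on either strand to the ETS core AGGAAG, which reads CTTCCT in reverse, and to the RUNX site TGTGGT, which on the opposite strand reads ACCACA. Slamf7 lies at chr1:171648950-171649249 on the minus strand, Cd48 at chr1:171681742-171682041 on the plus strand, and Cd84 at chr1:171839447-171839746 on the plus strand. The Slamf7 window lies inside the GENCODE span of the gene, whose 5′ end on the minus strand is at 171653035.
Slamf7: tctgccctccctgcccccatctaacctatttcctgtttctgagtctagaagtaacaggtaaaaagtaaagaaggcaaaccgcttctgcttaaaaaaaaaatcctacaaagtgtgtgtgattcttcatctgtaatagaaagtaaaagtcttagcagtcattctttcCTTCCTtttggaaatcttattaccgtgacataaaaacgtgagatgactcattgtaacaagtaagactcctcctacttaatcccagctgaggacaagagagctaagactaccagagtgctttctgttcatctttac
Cd48: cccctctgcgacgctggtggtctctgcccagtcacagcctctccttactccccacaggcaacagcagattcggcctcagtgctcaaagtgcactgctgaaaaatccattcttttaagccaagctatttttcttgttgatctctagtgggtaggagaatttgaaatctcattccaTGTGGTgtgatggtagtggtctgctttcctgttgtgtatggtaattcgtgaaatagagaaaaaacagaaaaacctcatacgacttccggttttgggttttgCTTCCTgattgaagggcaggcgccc
Cd84: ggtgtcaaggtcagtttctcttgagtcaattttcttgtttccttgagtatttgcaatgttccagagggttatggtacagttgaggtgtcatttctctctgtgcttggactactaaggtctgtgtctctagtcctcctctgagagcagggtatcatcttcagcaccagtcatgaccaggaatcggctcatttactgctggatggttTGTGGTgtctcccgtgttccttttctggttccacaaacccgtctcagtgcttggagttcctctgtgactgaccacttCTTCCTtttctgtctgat
The Slamf7 window held the ETS core once and no RUNX site, and those of Cd48 and Cd84 held each motif once. Slamf1 held the ETS core 2 times, and neither Cd244 nor Slamf6 held either motif. The TATA box TATAAA was in none of the 6 windows. Of 32851 promoters of the same length, 35.4% held the ETS core, 16.8% the RUNX site and 13.6% the TATA box, and no motif overlapped another in the windows printed. These letters belong to the C57BL/6 genome, and the BALB/c sequence was not analysed here.

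Cd244, a receptor of NK cells and CD8 T cells, was the other member called lower in BALB/c glands. Its scores ran from -0.61 through a median of -0.50 to -0.21 in BALB/c glands and from -0.37 through -0.29 to 0.02 in C57BL/6 glands, so the strains overlapped over all weeks. Within weeks, Cd244 was lower in BALB/c glands without overlap at 3 and 6 w p.i., as was Slamf6 at 6 w p.i. Of all genes, 12.1% at 3 w p.i. and 11.6% at 6 w p.i. were lower without overlap. Neither Cd244 nor Slamf6 was called in any single week. The averaged difference of Cd244 was -0.21 ± 0.07 (adjusted p = 0.041). This call was lost in 13 of 18 refits that each left out 1 gland library, with adjusted p up to 0.108, and after quantile normalization or median rescaling of the libraries. Its ligand Cd48, found on nearly all leukocytes, had a difference of -0.15 ± 0.07 (adjusted p = 0.2).

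The other members gave no call between strains. Ly9, a receptor of T and B cells, had a difference of -0.18 (95% interval -0.35 to -0.02, adjusted p = 0.17). For Slamf1, present on activated lymphocytes and myeloid cells, it was -0.10 (-0.25 to 0.06). Cd84, a receptor of myeloid and lymphoid cells, had -0.04 (-0.22 to 0.13), and Slamf6, a receptor of T, B and NK cells, had -0.09 (-0.31 to 0.14). The median difference over the 7 members was -0.15, and over all genes it was 0.01.

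Leukocyte markers differed between the glands as well. The mean score of Ptprc, Coro1a and Laptm5, 3 genes of nearly all leukocytes, ranged from 0.86 to 1.44 in BALB/c glands and from 1.18 to 1.66 in C57BL/6 glands. Ptprc was called lower in BALB/c glands (-0.25, adjusted p = 0.0459), 1 of the 3 genes. Of the lymphoid lists, 1 of 9 T cell genes, 2 of 7 B cell genes, 2 of 4 plasma cell genes and 2 of 5 NK cell genes were lower, as was 1 of 6 macrophage genes, and 4 of 5 milk genes were higher. The share of all genes lower in BALB/c glands was 5.49%, and the share that was higher is not given here. In bulk RNA, fewer cells of a type and less RNA per cell cannot be told apart. The leukocyte means of both strains shared a range from 1.18 to 1.44, which held 5 BALB/c and 7 C57BL/6 glands. There Slamf7 scored -0.11 to 0.19 in BALB/c and 0.32 to 0.55 in C57BL/6 glands. As the strains did not overlap in Slamf7 over all glands, these 12 could not have shown an overlap. In these 12 glands the Cd48 scores overlapped, with medians of 0.41 in both strains, as did those of Cd244, with medians of -0.39 and -0.31. Scores of Slamf1, Ly9 and Slamf6 overlapped too. Cd84, which gave no call between strains, was apart in the opposite direction, with 0.84 to 1.04 in BALB/c and 0.70 to 0.79 in C57BL/6 glands. With all glands included, Cd84 overlapped, at 0.50 to 1.04 in BALB/c and 0.70 to 1.06 in C57BL/6 glands. The mean of the 4 plasma cell genes in these 12 glands was 0.26 to 0.54 in BALB/c and 0.25 to 0.63 in C57BL/6 glands, with 6 of the 7 C57BL/6 glands at or above 0.48. Over all glands it ran from -0.27 to 0.54 and from 0.25 to 0.63. The shared range was chosen after the values were seen, and the part of plasma cell, NK cell and other lymphoid markers in the Slamf7 difference was not tested.

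**Figure D2:**
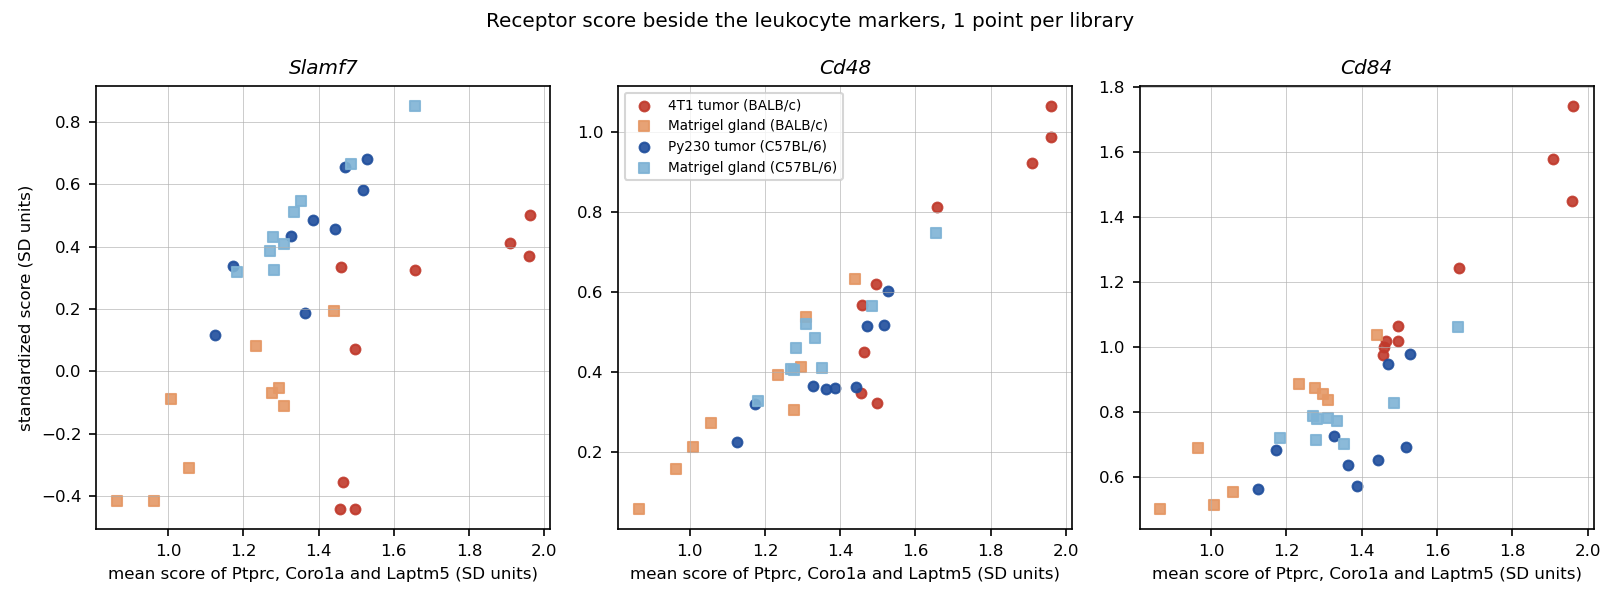
Scores of Slamf7, Cd48 and Cd84 (vertical axes, SD units, different ranges) against the mean score of the leukocyte genes Ptprc, Coro1a and Laptm5 (horizontal axes, SD units), 1 point per library. In glands with a leukocyte mean between 1.18 and 1.44, BALB/c libraries lie at or under 0.19 for Slamf7 and C57BL/6 libraries at or above 0.32, while Cd48 overlaps. For Cd84 the order is opposite, with BALB/c libraries at or above 0.84 and C57BL/6 libraries at or under 0.79. Over all glands Slamf7 did not overlap either, so this range could not have shown an overlap, whereas Cd84 did overlap.

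Around the block, within 500 kb on either side, the table held 44 other genes. In the averaged strain comparison 3 of them were higher and 2 lower in BALB/c glands, with a median difference of 0.01. Of all genes, 5.49% were lower, and the share that was higher is not given here. The smallest p-values belonged to Copa, a coat protein of Golgi vesicles (-0.10 ± 0.02, adjusted p = 0.0003), Atp1a4, a sodium pump subunit (0.40 ± 0.08, adjusted p = 0.000402), and Itln1, a lectin (0.24 ± 0.05, adjusted p = 0.000481). All 3 lie outside the block. The other two were Gm20045 (0.19, adjusted p = 0.00135) and Gm10521 (-0.25, adjusted p = 0.00412), which lies inside it, between Cd84 and Slamf6. The difference of Slamf7 was the lowest of the 51 genes drawn along the locus.

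**Figure D3:**
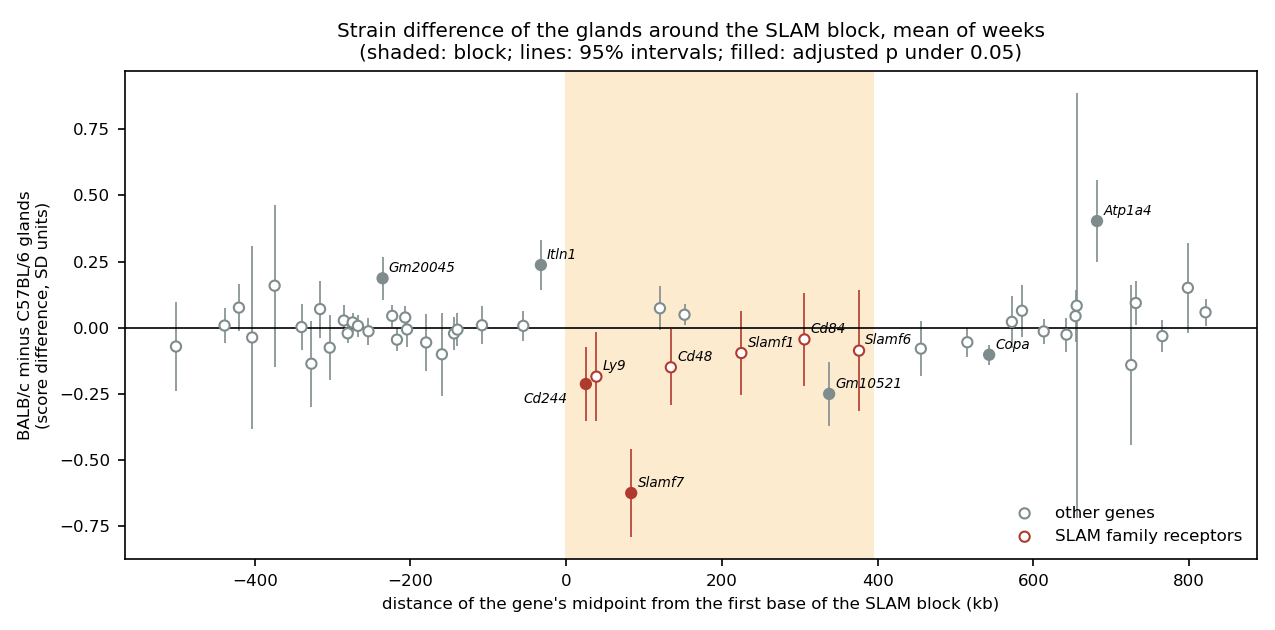
Score difference of BALB/c minus C57BL/6 glands, averaged over weeks, for the 7 receptors (red) and 44 other genes (grey) against the distance of each gene's midpoint from the start of the block, in kb. Lines are 95% intervals, filled points passed the test and the shaded band is the block; Slamf7 lies lowest, at -0.62.

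The main comparison of the study set 4T1 against Py230 tumors. At 1 w p.i., 5 of the 7 members were higher in 4T1 tumors, against 11.0% of all genes. Slamf6 scored 0.24, -0.22 and 0.16 in 4T1 and -0.87, -0.56 and -0.62 in Py230 tumors, a difference of 0.74 ± 0.19 (adjusted p = 0.00892). Slamf1 scored -0.67, -1.06 and -0.42 against -1.58, -1.21 and -1.21 (0.62 ± 0.13, adjusted p = 0.00275). Every 4T1 library lay above every Py230 library for these receptors. The share of all genes without overlap is not given here for 4T1 against Py230 tumors at any week.

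Cd84 scored 1.58, 1.24 and 1.45 in 4T1 tumors at 1 w p.i. and 0.56, 0.95 and 0.98 in Py230 tumors (0.59 ± 0.15, adjusted p = 0.00675). The pair of ligand and receptor moved in the same direction, with Cd48 at 0.92, 0.81 and 0.99 against 0.22, 0.52 and 0.60 (0.46 ± 0.12, adjusted p = 0.0101) and Cd244 at 0.11, -0.16 and 0.10 against -0.61, -0.28 and -0.09 (0.34 ± 0.12, adjusted p = 0.0402). Cd48 did not overlap between the tumors, whereas Cd244 did. For Ly9 the difference was 0.22 ± 0.14 (adjusted p = 0.279). Slamf7 was the sole member below 0, at -0.11 (95% interval -0.40 to 0.17, adjusted p = 0.598).

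The number of members called at 1 w p.i. rested on single libraries. It fell from 5 to 1 without Py230 replicate 1, which had the lowest score of its group for each member, to 2 without 4T1 replicate 3 and to 3 without 4T1 replicate 1. Slamf1 kept its call in all 6 refits. When only the 6 libraries compared were fitted, Slamf6 alone was called (adjusted p = 0.0409).

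At 3 w p.i. the members called higher in 4T1 tumors were Cd84 (0.61 ± 0.15, adjusted p = 0.00271), Slamf1 (0.44 ± 0.13, adjusted p = 0.0133) and Cd48 (0.40 ± 0.12, adjusted p = 0.0135), 3 of 7 against 11.9% of all genes. Cd84 scored 1.74, 1.06 and 1.00 in 4T1 and 0.57, 0.73 and 0.69 in Py230 tumors. Slamf6 (0.48 ± 0.19, adjusted p = 0.0594) missed the threshold, with 4T1 scores of 0.58, -0.53 and -0.26. The first 4T1 library was the highest of its group for all 7 members, and its mean leukocyte marker score was 1.96, against at most 1.496 in the others. Without it Cd84 alone was called (0.37), and in a fit of only the 6 libraries no member was.

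At 6 w p.i. Slamf7 alone was called, and it was lower in 4T1 tumors. It scored -0.44, -0.36 and -0.44 in 4T1 and 0.46, 0.19 and 0.58 in Py230 tumors, which did not overlap. The difference was -0.82 ± 0.14 (adjusted p = 2.94e-05), and leaving out single libraries kept it between -0.93 and -0.73. Lower calls were made for 16.7% of all genes and higher calls, of which the family had none, for 24.1%. Mean leukocyte marker scores at that time ran from 1.46 to 1.50 in 4T1 and from 1.36 to 1.52 in Py230 tumors. None of the 3 leukocyte genes was called. Dendritic cell means were -0.58 to -0.33 in 4T1 and -0.25 to 0.05 in Py230 tumors. Neutrophil means were 0.22 to 0.43 and -0.65 to -0.48. The part of any of these cells in the Slamf7 difference was not tested. Cd84 had a difference of 0.34 ± 0.15 (adjusted p = 0.0647), and the remaining members lay between -0.20 and 0.12.

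**Figure D4:**
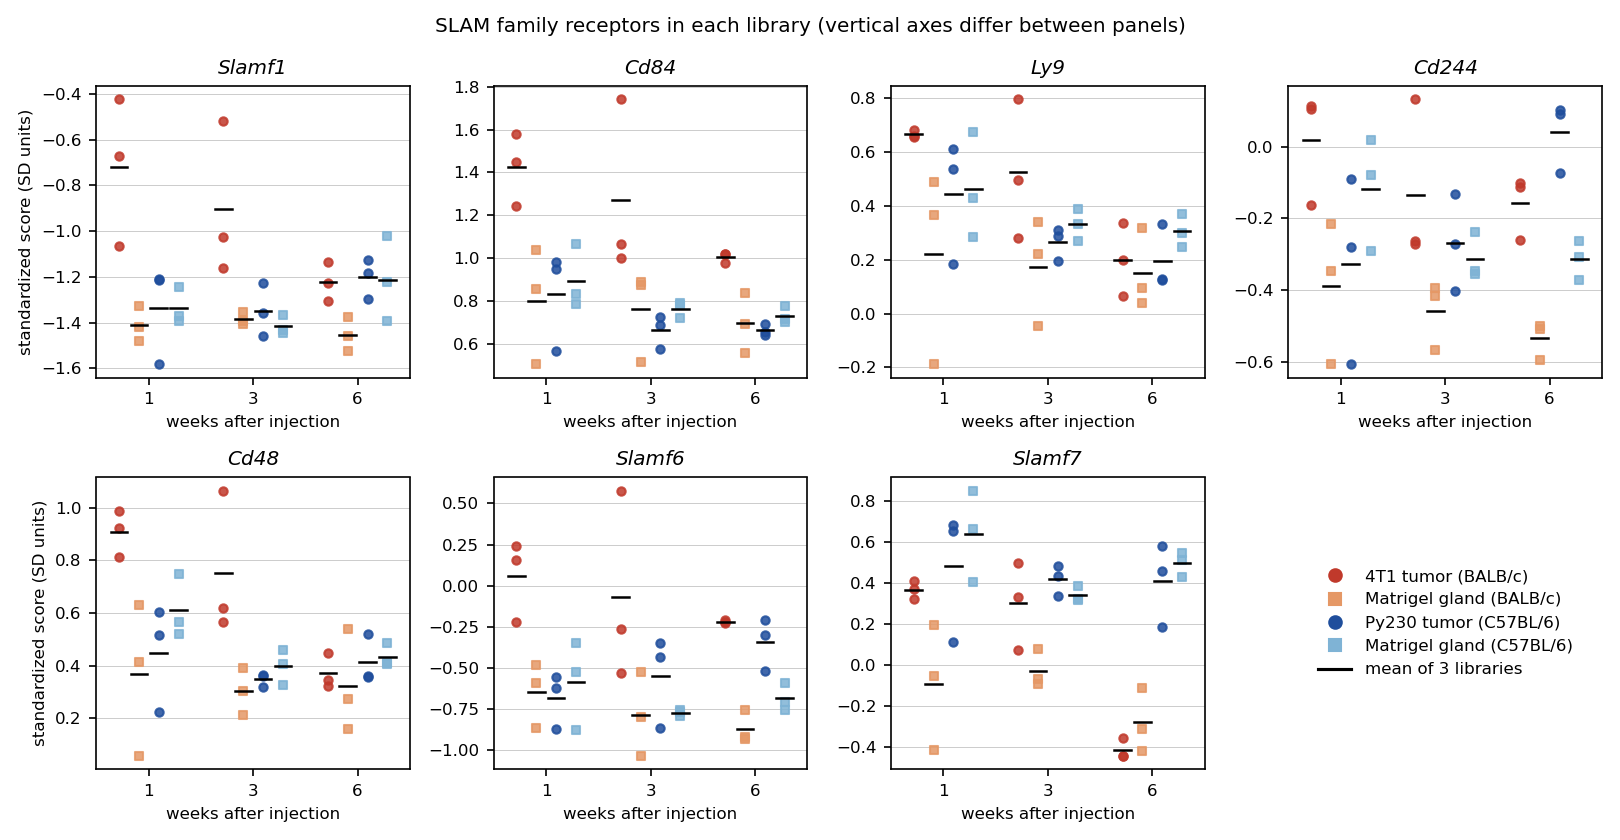
Standardized score of each receptor (vertical axes, SD units, different ranges) at 1, 3 and 6 weeks after injection, with 1 point per library and black bars for the means of 3 libraries. The 4T1 tumors (red circles) start high for Slamf1, Cd84, Cd48 and Slamf6, and their Slamf7 lies between -0.44 and -0.36 at week 6, beside BALB/c glands at -0.42 to -0.11.

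The strain difference of the glands was then subtracted from the difference of the tumors. No member was called in this contrast at any of the 3 times, while 0.305%, 9.15% and 25.5% of all genes were. Estimates at 1 w p.i. were positive for all 7 members, from 0.46 for Ly9 to 0.80 for Slamf6, and the smallest adjusted p was 0.0604, for Cd48 (0.70 ± 0.17). Slamf7 stood at 0.62 (95% interval 0.21 to 1.02, adjusted p = 0.107) at 1 w p.i. At 6 w p.i. it stood at -0.05 (95% interval -0.45 to 0.36, adjusted p = 0.894), where the tumor difference of -0.82 met a gland difference of -0.77. Leaving out single libraries of week 1 gave up to 5 calls, those of Slamf1, Cd84, Cd244, Cd48 and Slamf6, without 4T1 replicate 2, 4 without BALB/c gland replicate 3 and 2 without C57BL/6 gland replicate 2. At 3 w p.i. there were 2 calls without 4T1 replicate 3 and 1 without 4T1 replicate 2, and at 6 w p.i. Cd84 was called when only the groups compared were fitted (0.38, adjusted p = 0.0045). With the replicate block, Cd84 was called at 3 w p.i. (0.61, adjusted p = 0.0498).

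Each tumor was also set against the glands of its own strain, so that tumor and control shared their haplotype. In 4T1 tumors at 1 w p.i. all 7 members were higher than in BALB/c glands, against 9.91% of all genes, and for all 7 the libraries did not overlap, as for 16.2% of genes. The largest differences were 0.71 ± 0.19 for Slamf6 (adjusted p = 0.0167), 0.69 ± 0.13 for Slamf1 (adjusted p = 0.00478) and 0.63 ± 0.15 for Cd84 (adjusted p = 0.00879). Slamf7 differed by 0.46 ± 0.14 (adjusted p = 0.028). Without 4T1 replicate 3 no member was called, without BALB/c gland replicate 2, the lowest of its group for 6 members, Slamf1 alone was, and without 4T1 replicate 1 there were 2, Slamf1 and Cd48. A fit of only these 6 libraries gave no call, with adjusted p from 0.145 to 0.187.

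The count was 3 of 7 at 3 w p.i., against 2.10% of genes, with Slamf6 at 0.71 (adjusted p = 0.0425), Slamf1 at 0.48 (adjusted p = 0.0469) and Cd48 at 0.45 (adjusted p = 0.0441). All of these calls were lost without 4T1 replicate 1 or without any single BALB/c gland of that week. At 6 w p.i. Slamf6 (0.65 ± 0.19, adjusted p = 0.00505) and Cd244 (0.38 ± 0.12, adjusted p = 0.00777) were higher, 2 of 7 against 38.6% of genes. Slamf6 scored -0.21, -0.22 and -0.23 in these tumors and -0.76, -0.93 and -0.92 in the glands. Slamf7 had a difference of -0.13 (95% interval -0.42 to 0.15, adjusted p = 0.418).

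In Py230 tumors no member differed from C57BL/6 glands by the test at 1 or 3 w p.i., when limma called 0.00924% and 19.7% of genes. None had an unadjusted p under 0.05 in those weeks. At 6 w p.i. Cd244 was higher, with 0.09, -0.07 and 0.10 in tumors and -0.37, -0.31 and -0.26 in glands (0.35 ± 0.12, adjusted p = 0.015). That is 1 of 7 members, against 28.8% of genes. The call was lost without Py230 replicate 1 or 3 or C57BL/6 gland replicate 1. Slamf7 had a difference of -0.09 (95% interval -0.37 to 0.20).

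**Figure D5:**
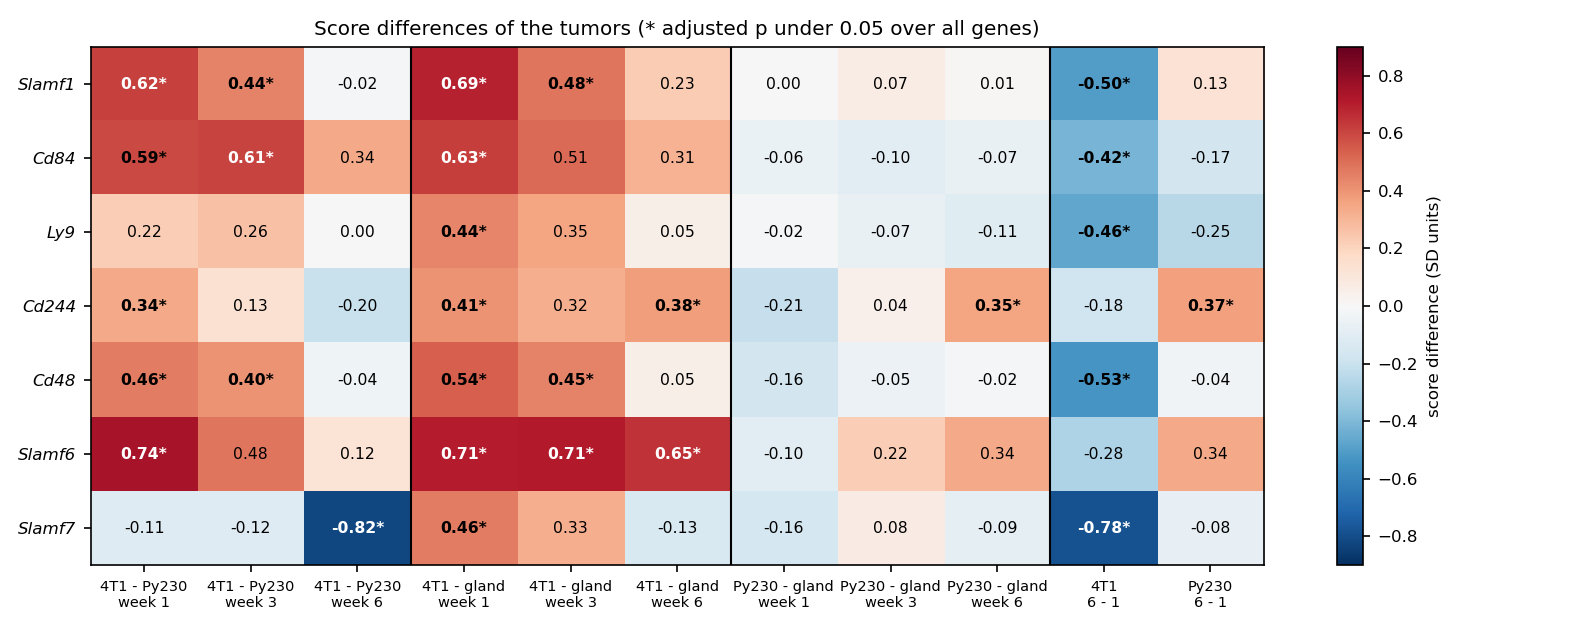
Score differences of the 7 receptors (rows) in 11 comparisons (columns), coloured from blue, lower in the first named group, to red, higher, with a star where the adjusted p was under 0.05. In 4T1 tumors at 1 week the column against their glands is positive for all members, from 0.41 to 0.71, and the matching Py230 column runs from -0.21 to 0.00.

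Over time, 5 members fell in 4T1 tumors from week 1 to week 6, against 17.5% of all genes. Slamf7 fell by 0.78 ± 0.14 (adjusted p = 5.14e-05), from scores of 0.41, 0.32 and 0.37 to -0.44, -0.36 and -0.44. Cd48 fell by 0.53 ± 0.12 (adjusted p = 0.000728), from 0.92, 0.81 and 0.99 to 0.32, 0.45 and 0.35. Slamf1, Ly9 and Cd84 fell by 0.50, 0.46 and 0.42. None of these 5 overlapped between the times, but the share of all genes without overlap is not given here for this comparison. Cd84 alone lost its call, without 4T1 replicate 1 or 3 of week 1 or replicate 3 of week 6. Cd244 and Slamf6 had differences of -0.18 (adjusted p = 0.221) and -0.28 (adjusted p = 0.234).

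In Py230 tumors Cd244 rose by 0.37 ± 0.12 (adjusted p = 0.0155), from -0.61, -0.28 and -0.09 to 0.09, -0.07 and 0.10. This was 1 of 7 members, against 24.3% of genes, and the call was lost without replicate 1 of week 1 or replicate 1 or 3 of week 6. Slamf7 had a difference of -0.08 (95% interval -0.36 to 0.21). The glands gave no call over the same time, while limma called 0.0831% of genes in BALB/c and 0.194% in C57BL/6 glands. In neither strain was the unadjusted p of any member under 0.05.

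Markers of leukocytes were called in several of these comparisons as well, although not always where a receptor was. In 4T1 against Py230 tumors at 1 w p.i., 3 of 3 leukocyte, 5 of 9 T cell, 3 of 5 NK cell, 2 of 7 B cell, 1 of 6 macrophage, 2 of 6 neutrophil and 2 of 6 dendritic cell genes were higher and none of these lists had a lower gene, whereas 2 of 5 mast cell genes were lower. The leukocyte mean ran from 1.66 to 1.96 in 4T1 and from 1.12 to 1.53 in Py230 tumors. At 3 w p.i. 1 of 3 leukocyte, 1 of 9 T cell, 2 of 5 NK cell, 3 of 7 B cell, 5 of 6 macrophage, 4 of 6 neutrophil, 4 of 6 dendritic cell and 4 of 5 mast cell genes were higher, and 1 mast cell gene was lower. At 6 w p.i. no leukocyte, T cell, B cell, macrophage or plasma cell gene was higher and 1 T cell gene was lower. At that time 6 of 6 neutrophil genes were higher and 3 of 6 dendritic cell genes lower, and NK and mast cell genes each had 1 higher and 1 lower. Against BALB/c glands at 1 w p.i. the counts were 3 of 3 leukocyte, 7 of 9 T cell, 5 of 5 NK cell, 1 of 7 B cell, 5 of 6 macrophage, 3 of 6 neutrophil and 1 of 6 dendritic cell genes higher. Between weeks 1 and 6 in 4T1 tumors, 2 of 3 leukocyte, 4 of 9 T cell, 4 of 5 NK cell, 3 of 7 B cell, 3 of 4 plasma cell, 3 of 6 macrophage, 3 of 5 mast cell and 6 of 6 dendritic cell genes fell. In the opposite direction, 4 of 6 neutrophil genes and 1 plasma cell gene rose. The part of these markers in the differences of the receptors was not tested.

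The signaling genes of the family were followed as a list of 16, which held adaptors, kinases, phosphatases and the related receptors Slamf8, Slamf9 and Cd2. Between the glands 3 were lower in BALB/c and none higher, where 5.49% of all genes were lower. These were Cd2, an adhesion receptor that also binds Cd48 (-0.31 ± 0.07, adjusted p = 0.00312), the adaptor gene Sh2d1b1 (-0.23 ± 0.06, adjusted p = 0.00773) and Slamf8 (-0.37 ± 0.12, adjusted p = 0.0439). In 4T1 against Py230 tumors at 1 w p.i. 8 were higher, where 11.0% of all genes were, and 1 lower. Smallest in p were Cd2 (0.62 ± 0.12, adjusted p = 0.00124), Sh2d1a, the gene of SAP (0.52 ± 0.12, adjusted p = 0.0047), and the T cell kinase gene Lck (0.64 ± 0.18, adjusted p = 0.0132). The 1 that was lower was the phosphatase gene Ptpn11. By 3 w p.i. 4 were higher (11.9% of all genes), led by Fyn (0.33 ± 0.07, adjusted p = 0.00164), and by 6 w p.i. 2 were (24.1% of all genes), Ptpn11 (0.12) and Nfkb1 (0.17). Median differences of the list, from week 1 to week 6, were 0.20, 0.23 and 0.03, beside 0.01, -0.01 and 0.04 for all genes.

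Against their own glands, 4T1 tumors had 12 of the 16 list genes higher and 1 lower at 1 w p.i., 3 higher at 3 w p.i., and 12 higher and 2 lower at 6 w p.i. Of all genes, 9.91%, 2.10% and 38.6% were higher in these comparisons. At the last time the adaptor genes Sh2d1b1 (0.60 ± 0.10, adjusted p = 2.17e-05) and Sh2d1b2 (0.33 ± 0.06, adjusted p = 0.000115) were among the higher and the T cell and muscle kinase gene Prkcq among the lower (-0.99 ± 0.18, adjusted p = 5.6e-05). All 4 skeletal muscle markers were lower in that comparison as well, and the share of all genes that was lower is not given here. The part of muscle in the Prkcq difference was not tested. Py230 tumors had none of the list called at 1 or 3 w p.i. and 3 of 16 higher at 6 w p.i., Bcl10 (0.22), Sh2d1b2 (0.17) and Sh2d1b1 (0.25), when 28.8% of all genes were higher.

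Levels of each member were ordered over the 12 groups. For Slamf7 the highest mean was that of C57BL/6 glands at 1 w p.i. (0.64 ± 0.22 SD, n = 3), and the 4 lowest were those of BALB/c glands at 3, 1 and 6 w p.i. (-0.03, -0.09 and -0.28) and 4T1 tumors at 6 w p.i. (-0.41 ± 0.05 SD, n = 3). The highest means of Slamf1, Cd84, Ly9, Cd48 and Slamf6 were those of 4T1 tumors at 1 w p.i., at -0.72, 1.42, 0.66, 0.91 and 0.06. For Cd244 it was Py230 tumors at 6 w p.i., at 0.04. In every order, all 11 pairs of neighboring groups overlapped in range, so that only distant groups were apart.

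Across the 12 group means, the genes most like Slamf7 were Tspan32 (Pearson r = 0.95), a tetraspanin of blood cells, H2-M2 (0.94) and St8sia6 (0.93). Cd48 was most like Clec4a3 (0.99), Arhgap9 (0.98) and Unc93b1 (0.97), and Cd84 like Gm11427 (0.99), Lamp1 (0.98) and Ccl6 (0.98). For Slamf6 the genes were Dnm2 (0.98), Sla2 (0.97) and Trbv20 (0.97), for Slamf1 Hcst (0.98), Coro7 (0.97) and Skap1 (0.97), for Ly9 Ptpro (0.96), Taok3 (0.96) and Prkcb (0.95), and for Cd244 Parvg (0.95), Ppfia4 (0.95) and Ciita (0.94). Within the family, r ran from 0.04 to 0.58 between Slamf7 and the others and from 0.53 to 0.93 among the other 6. These values describe 12 group means of 3 libraries each, in which all genes come from the same libraries.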

How the data were processed

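Standardized scores of 36 RNA-seq libraries were analysed, with groups taken from the sample titles and 0 columns unmapped. The authors prepared stranded libraries, mapped reads with STAR to mm10, counted them per gene with summariseOverlaps and normalized with DESeq2; versions and gene annotation are not given in the sources used here. The deposited expression values are score values, with a mean of 0 and an SD of 1 in each library, a step that the methods do not describe. No count per library was used here, so depth and counting error are unknown. Further deposited tables hold the authors' fold changes and p-values, which were not used, and their mean normalized count per gene, which gave levels between genes. Symbols came from these tables, except for 5384 genes, whose names were looked up in GENCODE M21.

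Scores were fitted in R 4.3.3 with limma 3.58.1 (trend, robust, 24 residual degrees of freedom), with Benjamini-Hochberg adjustment over 21650 genes and a threshold of 0.05, after the procedure had been tested on simulated data. The exact permutation test of 3 against 3 libraries cannot go below 0.10 and was not used. All members are named whether or not they changed. Also named are the 3 genes of the pathway list and of the locus with the smallest p in a comparison, and the 3 genes most like each member. Prkcq, Ptpn11, Nfkb1, Bcl10, Slamf8, Gm20045, Gm10521 and markers shown for their level were added after their values were seen where they fall outside this rule. The members and lists were chosen with earlier results of these data known. Of the marker lists, Cr2 had no value. Of dendritic cell, mast cell, neutrophil, adipocyte, skeletal muscle and epithelial markers, 1 of 6, 0 of 5, 0 of 6, 0 of 5, 0 of 4 and 0 of 6 were called between strains.

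Replicate numbers were checked for pairing. Between the glands of both strains at week 1 the deviations of same-numbered libraries correlated at 0.41, 0.79 and 0.56, and in no other comparison did all 3 pairs exceed 0.1.

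Alternatives were fits of only the groups compared, cyclic loess and quantile normalization, median rescaling, a minimum mean count of 10, no trend, a replicate block and leaving out each library.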

Additional observations from a re-analysis of the deposited data

How the results depend on the processing

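Over all members and comparisons, refits without 1 library left 987 of 1134 results on the same side of the threshold and in the same direction. 64 lost a call, 18 gained one, none reversed a call, and 65 uncalled values changed sign. Of 1029 results under the other alternatives, 985 were the same, 22 lost and 14 gained a call, none reversed, and 8 uncalled values changed sign. Depth per library is unknown, and how it limits the calls of a rare receptor such as Slamf1 was not tested.

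Fitting only the groups compared, with fewer residual degrees of freedom, changed the number of members called in several comparisons. For 4T1 minus Py230 tumors, higher calls went from 5 to 1 at week 1, from 3 to 0 at week 3 and from 0 to 1 at week 6, where lower calls went from 1 to 2, and from 0 to 1 at week 6 after the strain difference was subtracted. For 4T1 tumors minus glands they went from 7 to 0, from 3 to 0 and from 2 to 4, and for Py230 tumors minus glands at week 6 from 1 to 2. Lower calls between strains went from 1 to 0 at week 1 and from 0 to 1 at week 3. With quantile normalization or median rescaling, 1 of the 2 strain calls was left, and the cause was not tested. These scalings shifted the median of all genes by under 0.1.

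Leaving out 1 library gave, for 4T1 minus Py230 tumors, 1 to 5 members higher at week 1 and 1 to 4 at week 3, and 0 to 5 and 0 to 2 after subtraction. For 4T1 tumors minus glands there were 0 to 7 at week 1 and 0 to 4 at week 3, for Py230 tumors at week 6 0 to 1 against glands and 0 to 1 against week 1, and between strains 1 to 2 lower.

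After removal of group means, 15 of 48 pairs of libraries with the same replicate number had a correlation over 0.1, in a range of -0.47 to 0.79. All 3 pairs did in 1 of 16 comparisons, that of the glands of both strains at week 1, where the block left every call of a member as it was. In the other comparisons the libraries shared only a number. With the replicate block, the count of members higher after subtraction of the strain difference at week 3 went from 0 to 1, which was Cd84 (0.61). At the same week Slamf6 against Py230 tumors and Cd84 against BALB/c glands also gained calls, and no call of a member was lost.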
